A study of Mus musculus with 10 samples.

Results

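The immunoglobulin variable (V) genes were taken as every gene of the deposited count table whose symbol begins with Ighv, Igkv or Iglv. This gave 156 of the 17279 genes listed, namely 80 heavy chain segments (Ighv), 73 kappa light chain segments (Igkv) and 3 lambda light chain segments (Iglv). The libraries were made from CX3CR1-GFP+ macrophages sorted by flow cytometry from the lamina propria of the whole small intestine, with a C57BL6/J genotype given for every library. Mice had undergone sham surgery or permanent middle cerebral artery occlusion (pMCAO), a model of ischaemic stroke without reperfusion, and cells were collected 24 h later from both groups. Each group held 5 libraries, named here sham 1 to sham 5 and pMCAO 1 to pMCAO 5 after the replicate numbers of the labels. The names of sham 1 and pMCAO 1 mark them as pools, and the labels used here do not say what was pooled, nor the age or sex of the animals. The comparison asks whether the level of V transcripts, the segments used and the dominance of single segments differed between sham-operated and post-stroke mice.

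An antibody V region is encoded by a V segment that is joined to a J segment, and in the heavy chain also to a D segment, by DNA rearrangement in a developing B cell. Each B cell clone therefore transcribes essentially 1 heavy chain and 1 light chain V segment, and antibody-secreting plasma cells carry these transcripts at very high levels. The small intestinal lamina propria is rich in plasma cells, most of which secrete immunoglobulin A (IgA), and macrophages do not rearrange these loci. A V segment count in bulk RNA thus sums the transcripts of many clones, and a few clones can set it when the number of plasma cells sampled is small. In bulk samples, fewer cells of a type and less RNA per cell cannot be told apart.

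The libraries held between 6430643 (pMCAO 1) and 60665972 (sham 5) counts. All 11 macrophage markers examined, among them Cx3cr1, Adgre1, Csf1r, C1qa and Lyz2, had counts in every library. CPM are counts per 1e6 library counts, with the library total scaled by the trimmed mean of M-values. The markers summed to 8311 to 18350 CPM in the sham group and to 8999 to 16820 CPM in the pMCAO group. Lyz2 made up much of these sums, with 5170 CPM in sham 5 beside 98.8 CPM for Cx3cr1. Immunoglobulin genes took from 0.524% (sham 4) to 16.7% (pMCAO 2) of all counts. The marker counts do not show that a library held macrophages alone. Xist, the RNA of the inactive X chromosome, had 135733 counts in sham 5 and 54382 in pMCAO 4 and between 29 and 166 in the other 8 libraries. Both libraries were therefore left out together in an alternative of each test. Nothing in the labels used here says whether libraries of 1 group came from separate animals beyond their description as biological replicates.

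Some of the segments that led a library are shown first, as germline sequence. The near-identity of some pairs bears on how reads could be assigned to them. All annotations and sequences are from GENCODE M21 on the GRCm38 build, which is also the build named in the submitters' processing notes. Each sequence is the 3′ end of the coding part of the V exon, exon 2 of 2, 5′ to 3′ on the coding strand. Capitals mark the bases from the last in-frame cysteine codon on. Those after that codon are the germline part of the third complementarity-determining region, the stretch that rearrangement extends. The Ighv segments lie on chromosome 12 and are read from the minus strand. Ighv3-6 (chr12:114288152-114288451) led 3 libraries, Ighv5-12 (chr12:113702124-113702423) led pMCAO 3 and Ighv10-3 (chr12:114523441-114523740) led pMCAO 4.
Ighv3-6: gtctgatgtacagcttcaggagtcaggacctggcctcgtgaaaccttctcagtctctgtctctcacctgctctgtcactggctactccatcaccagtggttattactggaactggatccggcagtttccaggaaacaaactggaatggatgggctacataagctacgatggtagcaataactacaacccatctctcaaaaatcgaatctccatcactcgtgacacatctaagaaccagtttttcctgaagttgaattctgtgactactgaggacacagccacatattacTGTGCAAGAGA
Ighv5-12: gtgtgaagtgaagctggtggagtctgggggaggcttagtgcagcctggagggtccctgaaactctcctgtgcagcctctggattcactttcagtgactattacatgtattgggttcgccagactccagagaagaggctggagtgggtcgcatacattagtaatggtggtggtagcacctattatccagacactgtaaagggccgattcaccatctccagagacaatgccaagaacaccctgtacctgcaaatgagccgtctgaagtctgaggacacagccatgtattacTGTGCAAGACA
Ighv10-3: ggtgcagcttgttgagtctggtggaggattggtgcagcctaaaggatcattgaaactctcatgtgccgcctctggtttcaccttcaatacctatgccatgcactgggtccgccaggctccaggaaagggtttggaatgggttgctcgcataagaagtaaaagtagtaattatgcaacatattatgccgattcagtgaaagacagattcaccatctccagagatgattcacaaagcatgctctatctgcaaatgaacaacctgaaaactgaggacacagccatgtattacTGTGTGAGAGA
The Igkv segments lie on chromosome 6. Igkv1-110 (chr6:68270968-68271267, plus strand) led 7 libraries, Igkv1-117 (chr6:68121528-68121827, plus strand) led pMCAO 5 and Igkv10-96 (chr6:68631963-68632260, minus strand) led pMCAO 3.
Igkv1-110: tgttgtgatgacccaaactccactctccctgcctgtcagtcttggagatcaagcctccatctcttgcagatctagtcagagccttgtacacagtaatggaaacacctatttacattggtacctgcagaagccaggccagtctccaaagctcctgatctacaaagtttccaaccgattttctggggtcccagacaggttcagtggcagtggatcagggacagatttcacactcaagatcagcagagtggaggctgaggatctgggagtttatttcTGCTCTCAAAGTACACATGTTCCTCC
Igkv1-117: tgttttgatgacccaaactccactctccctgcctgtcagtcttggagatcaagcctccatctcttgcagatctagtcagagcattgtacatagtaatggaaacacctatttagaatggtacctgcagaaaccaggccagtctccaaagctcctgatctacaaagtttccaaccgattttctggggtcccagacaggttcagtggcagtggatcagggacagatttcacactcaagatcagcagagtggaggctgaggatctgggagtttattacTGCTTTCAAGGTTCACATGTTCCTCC
Igkv10-96: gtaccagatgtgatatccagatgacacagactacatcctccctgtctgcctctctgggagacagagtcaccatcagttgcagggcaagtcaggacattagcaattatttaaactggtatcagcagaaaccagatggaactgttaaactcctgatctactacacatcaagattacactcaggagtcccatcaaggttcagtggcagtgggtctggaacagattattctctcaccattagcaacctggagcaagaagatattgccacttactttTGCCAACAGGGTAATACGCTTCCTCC
Iglv1 (chr16:19085017-19085316, minus strand) and Iglv2 (chr16:19260401-19260700, minus strand) are shown for their likeness to each other.
Iglv1: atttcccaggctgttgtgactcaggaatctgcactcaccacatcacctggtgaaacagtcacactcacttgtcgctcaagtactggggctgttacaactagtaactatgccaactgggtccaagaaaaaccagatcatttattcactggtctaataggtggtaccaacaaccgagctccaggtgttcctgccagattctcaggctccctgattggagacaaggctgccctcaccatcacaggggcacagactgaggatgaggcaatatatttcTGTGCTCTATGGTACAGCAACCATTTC
Iglv2: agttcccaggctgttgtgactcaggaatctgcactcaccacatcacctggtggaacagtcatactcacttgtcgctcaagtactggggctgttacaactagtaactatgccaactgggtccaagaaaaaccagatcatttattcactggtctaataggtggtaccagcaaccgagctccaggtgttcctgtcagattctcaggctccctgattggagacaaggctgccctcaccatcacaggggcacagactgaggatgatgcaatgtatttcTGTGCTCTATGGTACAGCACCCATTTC
The V exons of Igkv1-110 and Igkv1-117 were 96.8% identical and those of Iglv1 and Iglv2 97.0% identical. In contrast, those of Ighv3-6 and Ighv10-3 were 60.6% identical and those of Ighv5-12 and Ighv10-3 76.5% identical.

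Of the annotated V segments, 80 of 113 Ighv genes, 71 of 100 Igkv genes and all 3 Iglv genes were listed, together with 2 of 60 Igkv pseudogenes (Igkv4-73 and Igkv4-77) and none of the 70 Ighv pseudogenes. Every listed gene reached 10 counts in 2 or more libraries, so a segment that is not listed may have had fewer counts and is not shown to be unused. For 48 Ighv and 41 Igkv members, the closest other V gene of the same locus was at least 95% identical over the V exon. Even so, 56 of 80 Ighv and 37 of 73 Igkv members had no stretch of 100 bases, the read length, in common with another annotated V segment. Of Igkv1-110 transcript windows of that length, 16.2% also occurred elsewhere, beside 0% for Ighv3-6 and 1.71% for Iglv1. How the authors counted reads that fit several segments is not given in the sources used here, so the split of counts within close pairs is uncertain.

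V transcripts made up a widely varying share of the libraries, and that share did not differ detectably between the groups. In the sham group, V counts were 0.777% of all counts in sham 1, 2.27% in sham 2, 0.95% in sham 3, 0.0760% in sham 4 and 0.714% in sham 5. After pMCAO, they were 0.939% in pMCAO 1, 2.63% in pMCAO 2, 0.112% in pMCAO 3, 0.122% in pMCAO 4 and 0.851% in pMCAO 5. Sham 4, pMCAO 3 and pMCAO 4 thus lay below 0.5%, the other 7 libraries above it, and the groups overlapped over nearly their whole range. On the log2 scale, the share was -7.34 ± 1.82 (SD, n = 5) in the sham group and -7.67 ± 2.00 (SD, n = 5) after pMCAO, a difference of -0.33 (two-sided exact permutation test, p = 0.865). With 5 libraries against 5, the smallest p this test can give is 0.0079, and p-values over the 10 summary measures of V usage were adjusted by the Benjamini-Hochberg method (adjusted p = 0.96 here).

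**Figure D1:**
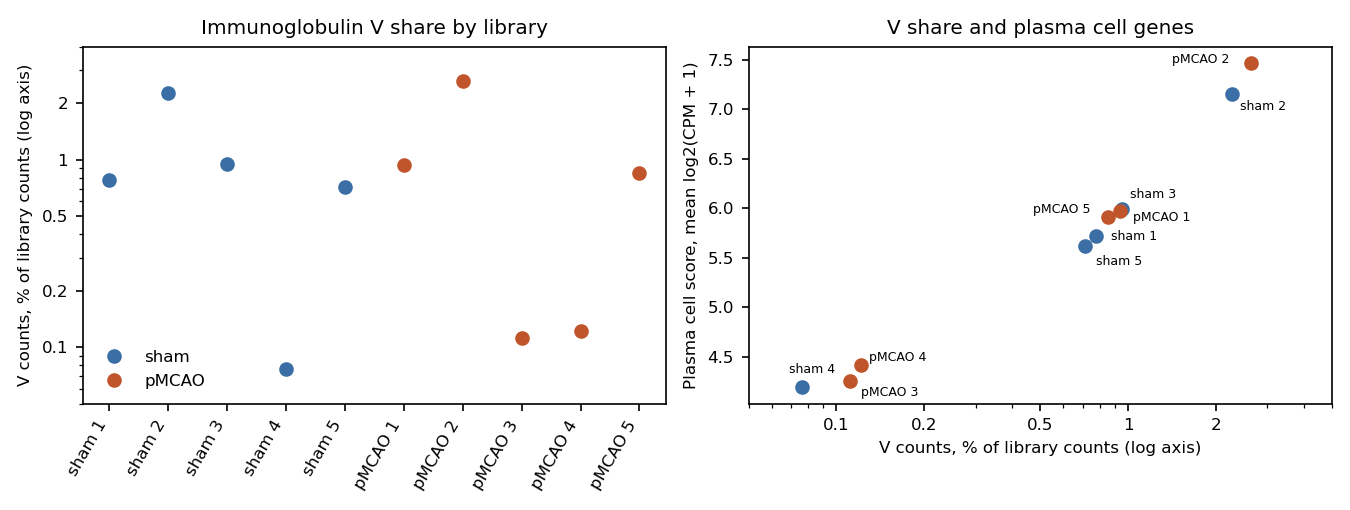
Left, the share of library counts on V segments (percent, log axis) for each of the 10 libraries, with sham libraries in blue and pMCAO libraries in orange. Right, the plasma cell score, the mean log2(CPM + 1) of 13 plasma cell genes, against the same V share, 1 point per library. Sham 4, pMCAO 3 and pMCAO 4 lie between 0.0760% and 0.122%, apart from the other 7 libraries, and the order of the libraries is the same on both axes.

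The V share moved with genes of plasma cells, the cell type that secretes antibody. The plasma cell score took in Mzb1 and Derl3 (proteins of the endoplasmic reticulum) and Sdc1 (CD138). It also took in Xbp1, Irf4 and Prdm1 (transcription factors of plasma cell identity) and others, but not Jchain or any immunoglobulin gene. All 10 libraries had the same rank by V share and by this score. Because 3 libraries lay apart, correlations were computed within the 7 libraries above 0.5%. There, Pearson's r between the log2 V share and the score was 0.999 (exact permutation test, p = 0.000198, adjusted p = 0.000794 over 4 relations) and Spearman's rho was 1.00 (p = 0.000397, exact permutation test). Without the 2 libraries farthest from the median, pMCAO 2 and sham 2, r was 0.983. The corresponding r for the score of 12 B cell genes, such as Ms4a1 and Pax5, was -0.152 (exact permutation test, p = 0.656), with a rho of -0.43 (p = 0.354, exact permutation test).

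All 14 plasma cell genes had counts in every library and summed to 1299 to 27040 CPM in the sham group and to 1571 to 30240 CPM after pMCAO. The 12 B cell genes summed to 592.7 to 846.4 CPM and to 513.3 to 961.4 CPM, and Cd79a, Ms4a1, Pax5 and Blk were at 0 in pMCAO 3. Bank1 was the largest part of this sum in every library, with 484.0 CPM in sham 4, where Cd79a was at 0.189 CPM. Ms4a1 ranged from 11.5 CPM (sham 4) to 106.5 CPM (sham 5) and from 0 (pMCAO 3) to 118.3 CPM (pMCAO 5). The narrow range of the sums therefore does not show that B cell transcripts were constant. Jchain, which links IgA subunits into dimers, ranged from 737.2 CPM in sham 4 to 24250 CPM in sham 2 and from 1048 CPM in pMCAO 3 to 26760 CPM in pMCAO 2. Igha took 80.3% to 96.5% of the counts of the heavy chain constant genes listed. What part these cells had in the V counts beyond this order was not tested.

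The ratio of heavy to light chain V counts varied less than the lambda share of the light chain. Ighv counts were 0.480 to 0.717 times the light chain V counts in the sham group and 0.442 to 0.616 times after pMCAO. The ratio was highest in sham 4 (0.717), pMCAO 4 (0.616) and pMCAO 3 (0.563), the libraries with a V share below 0.5%. It was lowest in pMCAO 2 (0.442) and sham 2 (0.480), which had the highest V shares, and this order was not tested. On the log2 scale the ratio was -0.87 ± 0.23 in the sham group and -0.91 ± 0.18 after pMCAO (SD, n = 5 each; two-sided exact permutation test, p = 0.833, adjusted p = 0.96). Lambda segments took 14.1%, 6.62%, 7.26%, 5.97% and 11.9% of light chain V counts in sham 1 to sham 5. They took 14.4%, 10.1%, 1.12%, 28.3% and 11.2% in pMCAO 1 to pMCAO 5. The lowest and the highest lambda share therefore both fell among the pMCAO libraries, in 2 libraries with few V counts. The log2 ratio of lambda to kappa was -3.39 ± 0.61 against -3.31 ± 1.91 (SD, n = 5 each; two-sided exact permutation test, p = 0.96, adjusted p = 0.96).

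Of the heavy chain segments, Ighv3-6 had the highest mean share, and no segment led all libraries. Ighv3-6 led sham 1 with 18.3% of Ighv counts, sham 4 with 38.2% and pMCAO 1 with 20.04%. Ighv1-55 led sham 2 with 8.61% and sham 3 with 14.9%, and Ighv2-9-1 led sham 5 with 9.60% and pMCAO 5 with 16.6%. Ighv1-26 led pMCAO 2 with 12.0%, Ighv5-12 led pMCAO 3 with 19.99% and Ighv10-3 led pMCAO 4 with 27.1%. The 95% Wilson interval of the sham 4 value, 36.9% to 39.4%, was the widest among the sham libraries, and such intervals cover counting error only. Shares are of counts, not per length. Annotated Ighv transcripts spanned 347 to 480 bases, and dividing by that length left the leader in place in 9 of 10 libraries, with Ighv1-39 leading sham 2 in place of Ighv1-55.

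Several leaders had a high share in the library they led and a low one elsewhere. Ighv5-12 took 19.99% of Ighv counts in pMCAO 3 but at most 1.88% in any other library and was at 0 in sham 4 and pMCAO 4. Likewise, Ighv5-4 took 18.4% in pMCAO 3 and at most 1.56% elsewhere. Both belong to the Ighv5 family, whose 9 listed segments held 50.04% of Ighv counts in pMCAO 3 and 1.84% to 9.58% in the other 9 libraries. Ighv10-3 took 27.1% in pMCAO 4, 6.003% in pMCAO 5 and at most 2.00% in the rest. In sham 4, Ighv3-6 and Ighv3-1 together with the 2 other listed Ighv3 segments held 51.5% of Ighv counts. By contrast, Ighv3-6 was among the 10 leading Ighv segments of 9 libraries, with a lowest share of 2.87% in sham 3. The Ighv1 family, the largest with 42 listed segments, held 20.2% (pMCAO 3) to 65.0% (sham 3).

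Among kappa segments, Igkv1-110 led 7 of 10 libraries. Its share of Igkv counts was 8.07%, 15.3%, 8.66%, 22.4% and 18.6% in sham 1 to sham 5. It was 19.8%, 17.1%, 2.01%, 25.2% and 13.6% in pMCAO 1 to pMCAO 5. The mean share was therefore 14.6% ± 6.2 in the sham group and 15.5% ± 8.7 after pMCAO (SD, n = 5 each), within the spread of either. The other leaders were Igkv8-27 in sham 3 with 12.9%, Igkv10-96 in pMCAO 3 with 22.6% and Igkv1-117 in pMCAO 5 with 24.6%. Igkv8-27 was again a segment of mainly 1 library, since its share elsewhere was at most 1.53%. Igkv5-48, never a leader, took 14.7% in pMCAO 2 and 11.7% in pMCAO 3 against 0.708% in sham 5. Igkv6-15, the remaining segment of the 5 with the highest mean share, ranged from 0.140% in sham 4 to 9.93% in pMCAO 3.

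**Figure D2:**
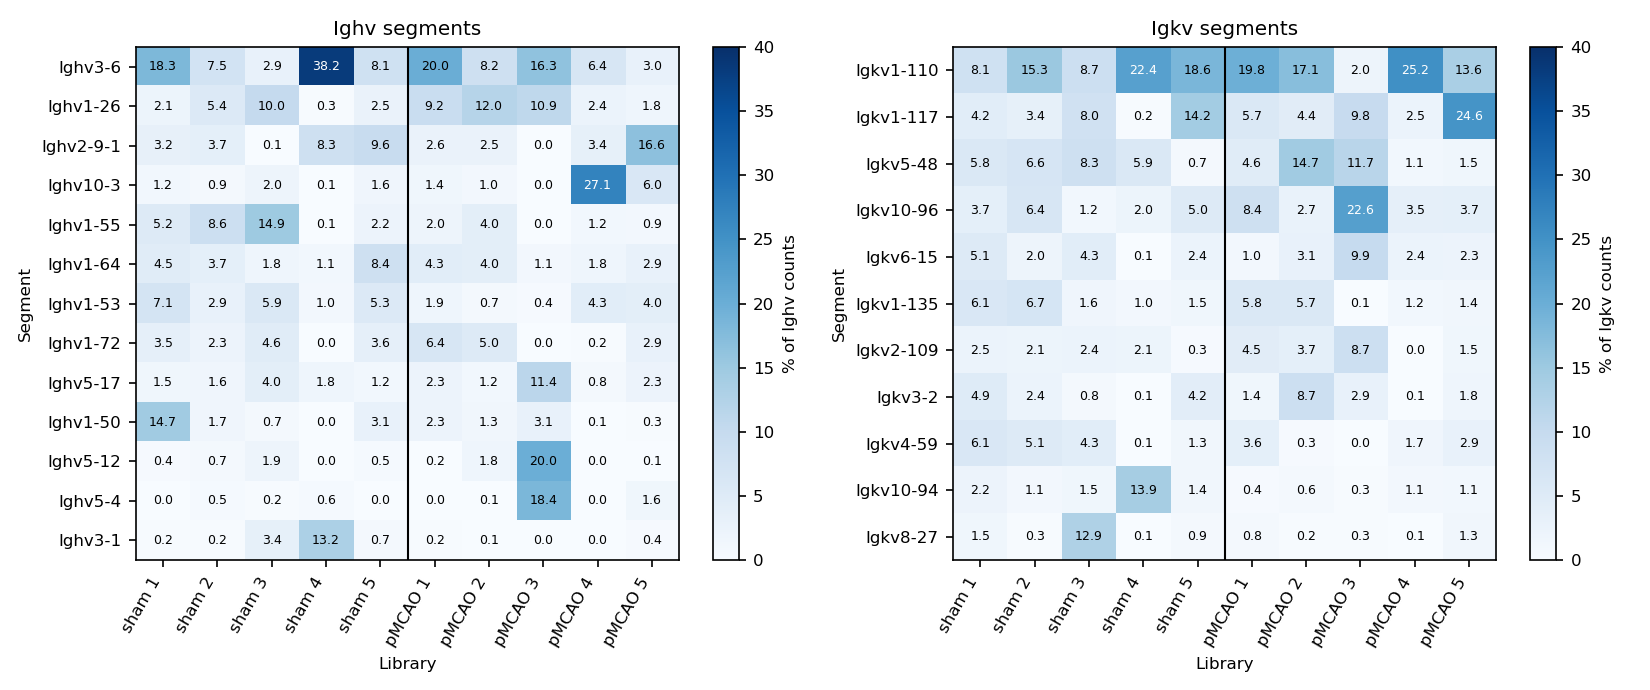
Share of locus counts (percent, colour and number) in each library for the 10 Ighv (left) and 10 Igkv (right) segments with the highest mean share, followed by the further segments that reached 10% in a library. The black line divides sham from pMCAO libraries. Ighv3-6 reaches 38.2% in sham 4 and Igkv1-110 25.2% in pMCAO 4, while Ighv5-12 and Ighv5-4 exceed 10% in pMCAO 3 and in no other library.

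Over all members, 10 Ighv and 6 Igkv segments reached 10% of their locus in at least 1 library. At least once among the 10 leading segments were 41 of 80 Ighv and 38 of 73 Igkv segments, and none of either locus was there in every library. Counts above 0 in all 10 libraries were found for 29 Ighv and 38 Igkv segments. The coefficient of variation of a segment's share over the 10 libraries had a median of 124% for Ighv (55.5% to 269%) and 109% for Igkv (47.3% to 296%), with Igkv1-110 the least variable of its locus. Place along the locus was not related to use in an evident way. Spearman's rho between a segment's rank from the J segments and its mean share was 0.06 over 80 Ighv and -0.03 over 73 Igkv segments, which share their libraries and are not independent. The 25 Igkv segments farthest from the J segments, which include Igkv1-110 and Igkv1-117, held 51.2% of Igkv counts.

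The lowest effective numbers of Ighv segments were in the libraries with few V counts. The effective number of segments, the inverse Simpson index, is the number of equally used segments that would give the same concentration. For Ighv it was 13.6, 25.8, 18.4, 5.34 and 23.7 in sham 1 to sham 5. It was 15.0, 24.6, 7.56, 10.4 and 19.96 in pMCAO 1 to pMCAO 5. The 3 lowest values thus fell in sham 4, pMCAO 3 and pMCAO 4, the 3 libraries below a V share of 0.5%. The 5 leading Ighv segments held 74.1% of Ighv counts in sham 4 and 77.0% in pMCAO 3, against 34.2% to 49.8% in the other libraries, pMCAO 4 included. When every library was thinned to 4542 Ighv counts, the smallest total, the effective number was still 5.34 in sham 4 and 25.7 in sham 2. This index rests on the common segments and hardly moves on thinning, so it is a weak check of depth. Ighv segments with counts fell on average from 80 to 73.1 in sham 2 and from 50 to 47.8 in sham 4. Thinning counts does not address how many cells were sampled. Within the 7 libraries above 0.5%, r between the log2 V share and the Ighv effective number was 0.646 (exact permutation test, p = 0.126) and -0.43 without pMCAO 2 and sham 2, with a rho of 0.50 (p = 0.267, exact permutation test).

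**Figure D3:**
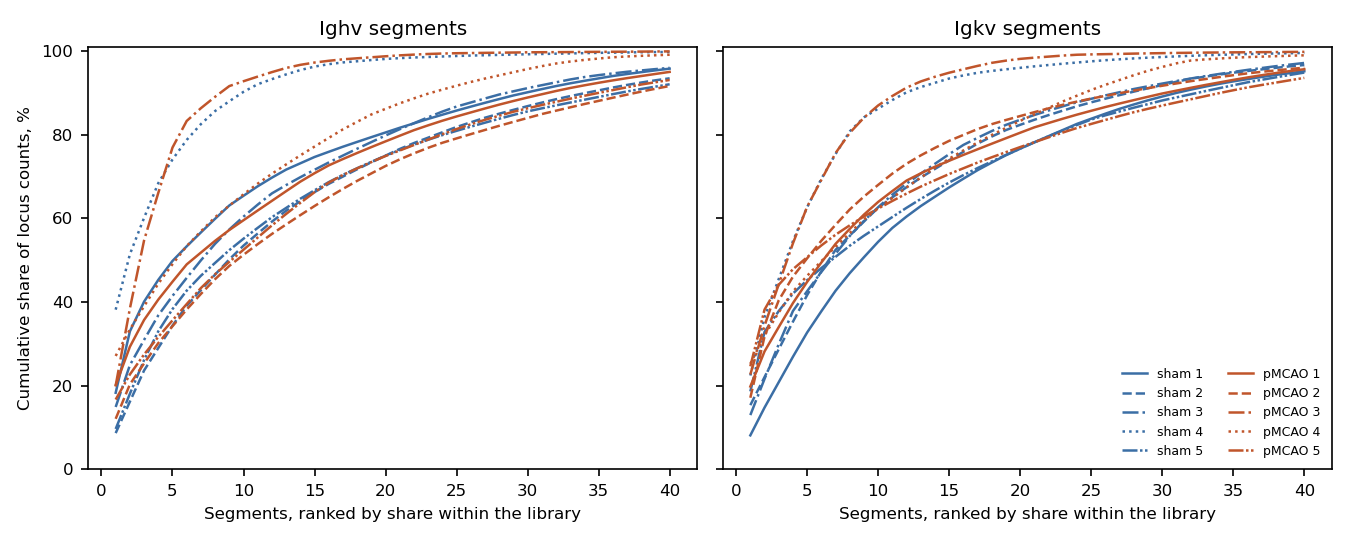
Cumulative share of locus counts (percent) against the number of segments taken in order of share within each library, for Ighv (left) and Igkv (right), with sham libraries in blue and pMCAO libraries in orange. With 10 segments, sham 4 and pMCAO 3 stand highest at both loci, at 90.3% and 92.8% of Ighv counts.

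The Ighv effective number was 17.4 ± 8.2 in the sham group and 15.5 ± 7.0 after pMCAO (SD, n = 5 each), a difference of -1.87 (two-sided exact permutation test, p = 0.714, adjusted p = 0.96). The share of the leading Ighv segment was 17.9% ± 12.0 and 19.2% ± 5.5 (SD, n = 5 each; two-sided exact permutation test, p = 0.841, adjusted p = 0.96). For Ighv, neither measure of dominance therefore differed beyond the spread between libraries.

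For Igkv, use was on average more concentrated after pMCAO, but the difference did not pass the test. The leading segment held 8.07%, 15.3%, 12.9%, 22.4% and 18.6% of Igkv counts in sham 1 to sham 5 and 19.8%, 17.1%, 22.6%, 25.2% and 24.6% in pMCAO 1 to pMCAO 5. The groups overlapped, with sham 4 and sham 5 above pMCAO 2. The mean was 15.5% ± 5.5 in the sham group and 21.9% ± 3.4 after pMCAO (SD, n = 5 each), 6.40 percentage points higher (two-sided exact permutation test, p = 0.0556, adjusted p = 0.556). The Igkv effective number was 25.9, 18.1, 18.7, 9.37 and 14.5 in the sham libraries and 14.9, 13.6, 9.41, 11.5 and 10.96 in the pMCAO libraries. Its lowest value was in sham 4, and 3 of 5 sham libraries lay above every pMCAO library. The difference in means was -5.22 (17.3 ± 6.1 against 12.1 ± 2.2, SD, n = 5 each; two-sided exact permutation test, p = 0.119, adjusted p = 0.556). Without sham 4, the unadjusted p was 0.0317 for the leading share (a difference of 8.13 points) and 0.0159 for the effective number (-7.20), each by the exact permutation test. Without pMCAO 2 it was 0.0317 for the leading share (7.59 points, exact permutation test). With counts divided by transcript length, an alternative chosen after seeing the data, the leading share differed by 6.26 points (exact permutation test, unadjusted p = 0.0476). These are the only settings that crossed 0.05 for the Igkv measures. With 1 library left out, 2 of 10 settings did so for the leading share and 1 of 10 for the effective number. The differences there ran from 4.55 to 8.13 points and from -7.20 to -3.07, and both were smallest without sham 1. Sham 1, whose name marks it as a pool, had the lowest leading Igkv share and the highest Igkv effective number of all libraries. All other alternatives stayed above an unadjusted p of 0.05. Among them, the replicate block, which swaps group labels within same-numbered libraries, cannot give a p under 0.05 and so could not cross it.

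The 3 lambda segments had a fixed order only at the top. Iglv1 took 83.3% to 92.3% of Iglv counts in the sham group, and 91.8%, 75%, 86.7%, 70.2% and 87.7% in pMCAO 1 to pMCAO 5. Its mean was 89.3% ± 3.7 and 82.3% ± 9.2 (SD, n = 5 each; two-sided exact permutation test, p = 0.167, adjusted p = 0.556). Iglv2 took 22.2% in pMCAO 2 and 26.2% in pMCAO 4 and at most 10.2% in the other 8 libraries. In pMCAO 3 it was at 0 of 90 Iglv counts, which allows a share of up to 3.33%. Iglv3 was second in 6 libraries, with 13.3% in pMCAO 3 as its highest share. In the mouse, Iglv2 rearranges mainly to the J and constant segment Iglc2, and Iglc2 is close in sequence to Iglc3. Iglc2 took 26.6% of Iglc1, Iglc2 and Iglc3 counts in pMCAO 2 and 29.3% in pMCAO 4, against 4.5% to 13.9% in the other 8 libraries. The same 2 libraries were thus highest for both the variable and the constant segment.

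Whole usage profiles did not separate the groups. The Bray-Curtis distance between 2 libraries, which is 0 for the same shares and 1 for no shared segment, averaged 0.559 within the sham group, 0.604 within the pMCAO group and 0.566 between groups for Ighv. For Igkv the values were 0.513, 0.551 and 0.515. Distances between groups minus those within groups came to -0.0158 for Ighv (one-sided exact permutation test, p = 0.794, adjusted p = 0.96) and -0.0177 for Igkv (p = 0.865, adjusted p = 0.96, same test). The most alike pairs crossed the groups. Sham 5 and pMCAO 5 lay 0.278 apart for Igkv and 0.363 for Ighv, and sham 2 and pMCAO 2 lay 0.355 apart for Ighv. Sham 1 with pMCAO 1, sham 2 with pMCAO 2 and sham 5 with pMCAO 5 were each other's nearest library for Ighv, and of these only sham 5 with pMCAO 5 was so for Igkv. Libraries of the same number in both groups averaged 0.501 for Ighv and 0.448 for Igkv over 5 pairs, those of other numbers 0.582 and 0.531 over 20 pairs. This was seen in the data and was not tested, and the labels used here give no meaning to a shared number. Sham 4 and pMCAO 3 were farthest from the rest, with mean distances of 0.687 and 0.733 for Ighv and 0.645 and 0.666 for Igkv.

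**Figure D4:**
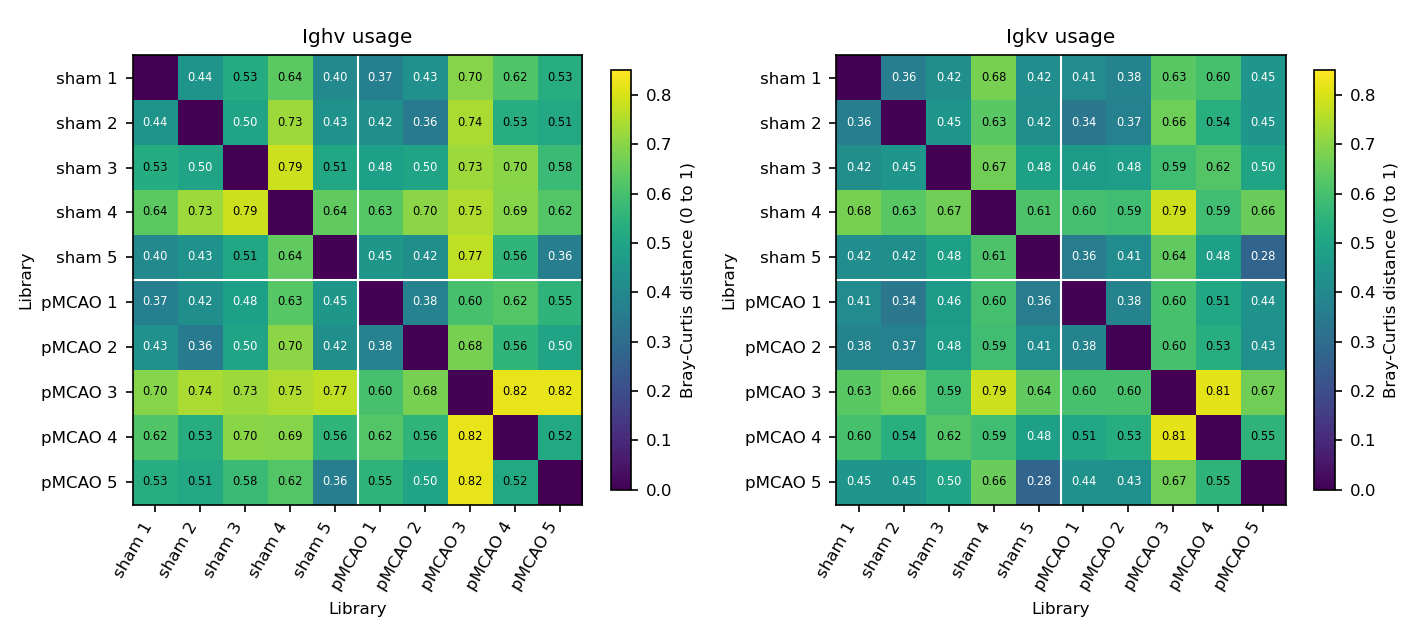
Bray-Curtis distance (0 to 1, colour and number) between the segment shares of every pair of libraries for Ighv (left) and Igkv (right). White lines divide sham from pMCAO libraries. The blocks within groups are no darker than the block between them, and the rows of sham 4 and pMCAO 3 are the lightest.

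At the level of single segments, no V member was called different between the groups. Of the 156 members, 149 passed the filter on low counts and entered edgeR's quasi-likelihood test over 16949 genes. Ighv1-31, Ighv3-4, Ighv5-15, Ighv14-1, Ighv14-4, Igkv1-88 and Igkv4-77 did not pass it. At a false discovery rate (FDR) of 0.05, 0 of 149 members were called, as were 0% of all genes tested. At an unadjusted p under 0.05, 1 member was higher and 2 were lower after pMCAO, beside 2.26% of all genes higher and 2.45% lower. DESeq2 called 0 of the 141 members to which it gave an adjusted p at the same FDR, against 0.0197% of all genes, and limma-voom called 0 of 149 against 0% of all genes. At an unadjusted p under 0.05 DESeq2 had 4 of 143 members beside 5.94% of all genes, and limma-voom had 3 of 149 beside 5.2%. For no member did the 2 groups fail to overlap, while over all genes 0.448% were higher in every pMCAO library than in any sham library and 0.537% were lower.

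Fold changes of the members were large in both directions but so were their errors. In log2 fold change (pMCAO against sham), 77 members were above 0 and 72 below, with a median of 0.02 and quartiles of -0.96 and 0.76, beside a median of -0.01 over the other genes. Of the members, 63 (42.3%) lay beyond 1 in either direction, and their standard errors had a median of 1.35. Over the other genes 1378 (8.2%) lay beyond 1, with a median standard error of 0.36. The biological coefficient of variation, edgeR's measure of spread between libraries, had a median of 1.42 over the members (quartiles 1.23 and 1.62) and of 0.426 (quartiles 0.299 and 0.697) over 16277 other genes in the same range of expression. The median of the members also followed single libraries, being 0.79 without sham 2 and -1.03 without pMCAO 2. In simulated data with the spread of these libraries, the changed genes were drawn from all genes tested. There the test recovered 33 of 94 genes changed 4-fold and 5 of 97 changed 2-fold among 16500 genes. Recovery was not computed for V segments alone, whose spread was larger. Changes of that size in a V segment could therefore be missed.

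Most of the segments that dominated use had fold changes within their error, and none was called. Ighv3-6 (chr12:114288152-114288582) had 516.2, 601.5, 89.4, 143.8 and 153.5 CPM in sham 1 to sham 5 and 630.1, 715.7, 74.9, 28.1 and 75.1 CPM in pMCAO 1 to pMCAO 5. Both groups held 2 libraries above 500 CPM and 3 below 160 CPM, and the log2 fold change was 0.02 ± 0.83 (SE; edgeR FDR = 0.999). Igkv1-110 (chr6:68270485-68271267) had 356.6, 2404, 498.0, 110.7 and 606.9 CPM in the sham libraries and 964.5, 3020, 16.2, 129.5 and 601.0 CPM in the pMCAO libraries. Its lowest and its highest level were both in the pMCAO group, and its log2 fold change was 0.25 ± 1.03 (SE; edgeR FDR = 0.984). For Igkv1-117 the value was 0.45 ± 1.13, for Ighv1-26 0.76 ± 1.25 and for Iglv1 0.21 ± 0.98 (log2 fold change ± SE). Ighv1-55 and Igkv8-27 lay farther from 0 than their SE. Ighv1-55 stood at -1.61 ± 1.49 (log2 fold change ± SE; edgeR FDR = 0.925), with -0.88 when sham 2 was left out and -3.55 when pMCAO 2 was. Igkv8-27 stood at -2.74 ± 1.40 (edgeR FDR = 0.922), with 743.1 CPM in sham 3 and at most 67.7 CPM in any other library, and its log2 fold change was -0.42 without sham 3. The other segments that led a library, Ighv2-9-1, Ighv5-12, Ighv10-3 and Igkv10-96, and the non-leaders Igkv5-48, Igkv6-15 and Iglv3 had log2 fold changes between -0.17 and 0.99.

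Among the members with the smallest p-values, the fold changes of Igkv6-13, Igkv4-63 and Iglv2 depended most on a single library. Igkv6-13 (chr6:70457501-70458036) had 0.663, 0.647, 0.374, 9.18 and 0.298 CPM in sham 1 to sham 5 and 39.3, 493.3, 0.303, 0.492 and 26.1 CPM in pMCAO 1 to pMCAO 5. Only pMCAO 1, pMCAO 2 and pMCAO 5 lay above all sham libraries. Its log2 fold change was 5.75 ± 1.81 (SE; edgeR unadjusted p = 0.00768, FDR = 0.922), and 2.93 without pMCAO 2. In the other direction, Igkv4-63 (chr6:69377944-69378472) had 6.95, 1046, 2.59, 0.566 and 18.8 CPM in the sham libraries and 0.880, 0.0751, 0.505, 0.985 and 11.9 CPM in the pMCAO libraries. Sham 2 alone set its sham mean, and the log2 fold change was -6.12 ± 2.02 (SE; edgeR unadjusted p = 0.0103, FDR = 0.922), with -1.30 when sham 2 was left out. Ighv3-1 (chr12:113964388-113964818) had 6.53, 14, 106.3, 49.9 and 13.9 CPM in the sham libraries and 7.18, 9.24, 0.101, 0.0820 and 9.88 CPM in the pMCAO libraries. Sham 2 to sham 5 lay above every pMCAO library while sham 1 lay among them (log2 fold change -2.82 ± 1.05, SE; edgeR unadjusted p = 0.0194, FDR = 0.922). With any 1 library left out it ran from -3.18 to -1.97, the latter without sham 3 (edgeR unadjusted p = 0.0816). Iglv2, Igkv4-54 and Ighv9-1 followed with log2 fold changes of 2.29 ± 1.22, 3.41 ± 1.76 and -3.03 ± 1.52 (SE; edgeR FDR = 0.922 for each). These became 0.28 for Iglv2 without pMCAO 2, 2.08 for Igkv4-54 without pMCAO 4 and -1.98 for Ighv9-1 without sham 3.

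**Figure D5:**
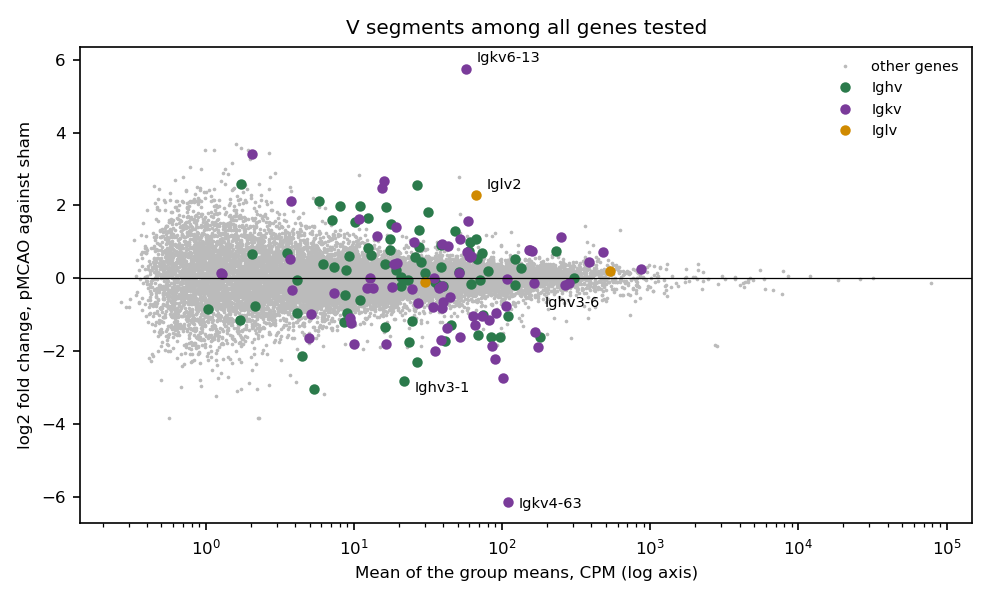
Log2 fold change (pMCAO against sham) against the mean of both group means (CPM, log axis) for each gene tested, with V segments coloured by locus and all other genes in grey. The V segments scatter between -6.12 and 5.75, on either side of 0, and none passed an FDR of 0.05.

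Genes that accompany V transcription gave a like picture, with 0 genes called at an FDR of 0.05 by edgeR in any list. Among the immunoglobulin constant genes, 11 of 12 were listed (not Ighe), 5 were above 0 and 6 below in log2 fold change, and none had an unadjusted p under 0.05. Igha, the constant region of IgA, had a log2 fold change of -0.01 and Igkc, that of kappa chains, of -0.05. Of the plasma cell genes, 11 of 14 were above 0, with a median log2 fold change of 0.09 and no unadjusted p under 0.05. Of the B cell genes, 3 of 12 were above 0, with a median of -0.16 and again no unadjusted p under 0.05. Of the genes for rearrangement and octamer factors, 6 of 7 were listed (not Rag1). Pou2f2 (Oct2), a factor that binds the octamer of V promoters, had 91.7 to 122.3 CPM in the sham group and 115.1 to 188.3 CPM after pMCAO (log2 fold change 0.45, edgeR unadjusted p = 0.0205), the 1 gene of this list with a p under 0.05. Its level did not follow the V share after pMCAO. It was highest in pMCAO 4 (188.3 CPM, V share 0.122%) and lowest in pMCAO 2 (115.1 CPM, V share 2.63%). Rag2, which is needed for rearrangement, and Dntt, which adds bases at the junctions, had at most 2.28 and 7.82 CPM in any library. The medians were 0.15 over 11 macrophage genes, -0.62 over 6 T cell genes, -0.50 over 6 epithelial genes, 0.03 over 4 dendritic cell genes and -0.27 over 5 stromal and endothelial genes, with no unadjusted p under 0.05 in these lists, beside the median of -0.01 over all genes tested.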

How the data were processed

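RNA sequencing of 10 libraries of sorted small intestinal macrophages (5 sham, 5 pMCAO, 24 h) was analysed. Per the labels, libraries were made from 2.0 ng of total RNA with a kit that cleaves ribosomal RNA and read as paired ends of 100 bases. The submitters' processing notes name STAR, featureCounts, limma, GRCm38 and mm10, with no versions or counting options. The authors deposited a table of read counts per gene, in which every listed gene reached 10 counts in 2 or more libraries. The deposited table also holds CPM per library, scaled to the counts of the listed genes, and columns of the authors' own comparison (log2 fold changes, log2 mean expression and p-values), which were not used. CPM given in the text were recomputed from the counts, with library totals scaled by the trimmed mean of M-values.

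The members were chosen by symbol, and members and gene lists were chosen with earlier results of these data known. Counts of all genes were filtered with filterByExpr, scaled by the trimmed mean of M-values (TMM) and tested with edgeR 4.0.16 (R 4.3.3). Summary measures were tested by exact permutation over the 252 assignments of the libraries. Named segments were those leading Ighv or Igkv in a library, the 5 Ighv and 5 Igkv with the highest mean share, all Iglv, the 3 with the smallest p in each direction and any whose groups did not overlap; segments beyond these were named after their values were seen. Correlations had been planned over all 10 libraries and are given within 7, because 3 libraries lay apart. The marker scores used log2(CPM + 1). One gene of the B cell list is not reported here and was left out of that list's score and counts. The alternatives were DESeq2 1.42.0, limma-voom (limma 3.58.1), other scalings and filters, left-out libraries, a replicate block, thinning to equal depth (100 draws), V families and other indices. The fits were tested on simulated data. Depth ranged from 6430643 to 60665972 counts, and the libraries with fewest V counts (12610 in pMCAO 3) are the least precise. The published article linked to the series describes other libraries, so methods were taken from the labels.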

Additional observations from a re-analysis of the deposited data

Results flagged for a closer look

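In groups of 5 libraries, a library was flagged when its gap to the nearest other exceeded 0.71 of the range of its group (Dixon's 95% criterion). Chance flags about 5% of groups of normally distributed values, but that share is no baseline here, because the segments were named partly for leading a library or for a small p. Of 40 groups of CPM values of the named segments, 12 were flagged, each for a high library, and 0 of 16 groups of summary measures were. Of these 12, 6 came from pMCAO 2, the library with the highest V share. There, Ighv1-55 was at 347.9 CPM (next highest of its group 63.5), Ighv1-26 at 1045 CPM (next 290.1) and Igkv5-48 at 2593 CPM (next 225.9). In the same library, Igkv6-15 was at 545.3 CPM (next 99.98), Iglv2 at 440.2 CPM (next 53.2) and Igkv6-13 at 493.3 CPM (next 39.3). Sham 2, the library with the highest V share of its group, gave 3, namely Igkv1-110 at 2404 CPM (next 606.9), Igkv10-96 at 1002 CPM (next 163.3) and Igkv4-63 at 1046 CPM (next 18.8). The remaining libraries were sham 3 for Igkv8-27 at 743.1 CPM (next 67.7), sham 4 for Igkv6-13 at 9.18 CPM (next 0.663) and pMCAO 5 for Igkv4-63 at 11.9 CPM (next 0.985).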

How the results depend on the processing

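The count of members past an FDR of 0.05 was 0 under each of the 9 other settings and 0 to 0 when 1 library was left out. Of the summary measures, 44 of 52 values kept direction and side of the threshold. The replicate block of these measures cannot give a p under 0.05, so its side of the threshold was fixed beforehand. Without sham 5 and pMCAO 4, which held Xist counts, differences turned to 0.221 (log2 V share), -0.277 (log2 lambda to kappa), -2.80 points (leading Ighv share) and 0.999 (Ighv effective number). With V families in place of segments they turned to -8.94 points (leading Ighv share, exact permutation p = 0.0794), 0.604 (Ighv effective number) and 0.000501 (Igkv distance). With counts per transcript length, an alternative chosen after seeing the data, the leading Igkv share differed by 6.26 points (exact permutation p = 0.0476). With 1 library left out, the differences ran from -1.09 to 0.20 (log2 V share), -0.403 to 0.879 (lambda to kappa), -0.0879 to 0.0629 (heavy to light), -1.07 to 6.32 points (leading Ighv share), -4.88 to 0.233 (Ighv effective number), 4.55 to 8.13 points (leading Igkv share) and -7.20 to -3.07 (Igkv effective number). No cause was tested.

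Of the log2 fold changes of named segments, 159 of 177 kept direction. Under limma-voom the sign turned for Ighv3-6 (-0.66), Ighv5-12 (-0.65), Igkv1-110 (-0.57), Igkv10-96 (0.43), Igkv5-48 (-0.35), Igkv6-15 (0.26) and Iglv1 (-0.41). Without both pools it turned for Ighv3-6 (-0.14) and Igkv6-15 (0.23), and without the 2 libraries with Xist counts for Iglv3 (0.35). Left-out libraries gave -0.58 to 0.43 (Ighv3-6), -0.60 to 0.96 (Ighv2-9-1), -0.79 to 1.46 (Ighv1-26), -0.14 to 1.41 (Ighv5-12), -0.90 to 1.27 (Igkv1-110), -0.54 to 1.30 (Igkv10-96), -0.19 to 0.75 (Igkv1-117), -1.90 to 1.60 (Igkv5-48), -1.50 to 0.20 (Igkv6-15), -0.52 to 0.65 (Iglv1) and -0.49 to 0.45 (Iglv3).

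Over all genes, deviations from the group mean in same-numbered libraries correlated by 0.046, 0.341, -0.005, 0.232 and 0.372. The same-numbered pMCAO library was the best match of sham 2 and sham 5, but not of sham 1, sham 3 or sham 4. Replicate numbers were not taken as pairs in the main fit. In the fit with the replicate block 0 members were called, with 16 of 149 at an unadjusted p under 0.05 in place of 3, while the share of all genes at that p went from 4.71% to 7.69%. The block turned Ighv3-6 (-0.59), Ighv2-9-1 (-0.39), Ighv5-12 (-0.30), Igkv1-110 (-0.21), Igkv10-96 (0.51), Igkv5-48 (-0.35), Igkv6-15 (0.04) and Iglv3 (0.14).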
